A study of Mus musculus with 14 samples.

Results

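The genes described here are the colony-stimulating factor receptor chains of the mouse and the one ligand read with them: Csf1r, Csf2ra, Csf2rb, Csf2rb2 and Csf1. They were taken by symbol from the deposited table, matching its Ensembl identifiers with the version removed, and make up 5 of its 47937 genes. All 5 were found, and all 5 passed the filter on low counts that left 13061 genes for testing. The cells were mouse bone marrow-derived macrophages with the genotype label WT in all 14 libraries, that is, macrophages grown from bone marrow precursors. There were 6 untreated libraries, 5 libraries treated with mast cell supernatant and 3 treated with supernatant of mast cell intracellular traps (trap supernatant), each treatment lasting 3.5 h. Each belongs to a batch numbered 1, 2 or 3, and all batches hold libraries of all groups. The sources used here do not say what a batch stands for, in which medium the macrophages grew or what the supernatants contained.

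Csf1r encodes the receptor tyrosine kinase through which CSF-1 (M-CSF, the product of Csf1) and interleukin-34 keep macrophages alive and dividing, and CSF-1 is the factor with which bone marrow-derived macrophages are usually grown. Csf2ra encodes the chain that binds GM-CSF, the product of Csf2, while Csf2rb encodes the common beta chain that the receptors for GM-CSF, interleukin-3 and interleukin-5 share and that signals through Jak2 and Stat5. Csf2rb2 is a rodent-specific near copy of Csf2rb whose product serves the interleukin-3 receptor only.

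The libraries of batch 3 stood apart in a marker of the labelled cell type. Lyz2, the gene of the lysozyme that macrophages and other myeloid cells make, had 1 or 2 counts in each of the 5 libraries of batch 3, treated and untreated, and 68853 to 224532 counts in each of the other 9. The shared label WT gives no such difference, and its cause was not tested. The 7 other macrophage markers listed, Csf1r among them, summed to 7650 to 8500 CPM (counts scaled to the library's TMM-normalised total) in batch 1, 6210 to 6630 CPM in batch 2 and 8190 to 9140 CPM in batch 3. With Lyz2 the sums were 17600 to 19400, 11000 to 11800 and 8190 to 9140 CPM. Summed neutrophil markers were also higher in batch 3, at 182 to 226 CPM, than in batches 1 and 2, at 68.3 to 144 CPM, with Ly6g at 0 in the trap supernatant libraries. Results that draw on batch 3 are therefore given below with and without it, a choice made after seeing these values.

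Total counts were 11729073 to 22720419 per library. Of 10 mast cell markers, 7 were detected in untreated libraries at a summed level of 4.52 to 7.11 CPM, with Tpsb2, Mrgprb2 and Mcpt4 at 0. Most of that sum was Gata2, at 4.18 to 6.91 CPM, and the next highest marker, Kit, was at 0.137 to 0.615 CPM. After either supernatant all 10 were detected, at a sum of 76.2 to 1320 CPM with mast cell supernatant and 79.2 to 1920 CPM with trap supernatant. Mast cells themselves carry beta chains, and the part of mast cell RNA in the receptor values was not tested. Summed dendritic cell markers lay between 0.823 and 2.52 CPM over all libraries. The labels do not say whether libraries came from separate cultures or animals, so the p-values below measure the spread between these libraries, which may be technical. In bulk RNA, fewer cells of a type and less RNA per cell cannot be told apart.

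The loci are given on GRCm38 with GENCODE release M21. Csf1 (ENSMUSG00000014599) lies on the minus strand of chromosome 3 from 107741048 to 107760469. Csf2ra (ENSMUSG00000059326) lies on the minus strand of chromosome 19 from 61223957 to 61228429. On chromosome 15, Csf2rb2 (ENSMUSG00000071714) runs on the minus strand from 78282507 to 78305721 and Csf2rb (ENSMUSG00000071713) on the plus strand from 78325752 to 78353847.

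The beta chain pair is shown first, since how far its counts can be separated bears on every value given for it. Over the aligned coding bases Csf2rb and Csf2rb2 were 95.2% identical, with 125 bases that differ and 66 in gaps. The 120 coding bases with the most differences held 22 of them and are printed from the GENCODE M21 transcripts, 5′ to 3′ on the coding strand, with the differing bases in capitals. They are coding bases 309 to 428 of Csf2rb, which lie in more than 1 exon within chr15:78338898-78340471, and 312 to 431 of Csf2rb2, within chr15:78292838-78294433.
Csf2rb: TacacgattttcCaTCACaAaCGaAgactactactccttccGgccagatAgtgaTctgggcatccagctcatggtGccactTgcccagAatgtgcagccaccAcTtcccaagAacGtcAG
Csf2rb2: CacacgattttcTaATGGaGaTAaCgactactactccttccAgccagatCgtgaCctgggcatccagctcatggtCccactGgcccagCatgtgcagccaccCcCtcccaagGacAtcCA
Elsewhere the transcripts share identical stretches. Of all 75-base windows of the longest transcript, 10.7% for Csf2rb and 11.1% for Csf2rb2 occurred unchanged in the other gene. For 100-base windows the shares were 7% and 7.2%. The sources used here give neither the read length nor the treatment of reads that map to both genes, so the separate values of the pair are uncertain to that extent.

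For Csf1, the member whose level moved most, the 250 bases upstream of the RefSeq start are printed from the minus strand (RefSeq promoter table, GRCm38.p6, chr3:107760470-107760719), with matches to the motifs searched in capitals.
Csf1 upstream: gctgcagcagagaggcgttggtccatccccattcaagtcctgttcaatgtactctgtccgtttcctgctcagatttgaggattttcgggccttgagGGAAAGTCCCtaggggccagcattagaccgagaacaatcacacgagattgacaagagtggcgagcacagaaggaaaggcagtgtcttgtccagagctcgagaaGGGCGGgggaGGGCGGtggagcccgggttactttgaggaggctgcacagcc
Both strands were searched. The NF-kB consensus matched once, its first base 154 bases before the start, and 3.9% of 32851 promoter windows of this length hold such a match. The GC box GGGCGG matched at 51 and 41 bases before the start, as in 32.7% of windows with at least 1 match. No match was found for the PU.1 core GAGGAA (23.3% of windows), AP-1 TGANTCA (6.75%), the CRE TGACGTCA (1.55%) or the E-box CACGTG (6.02%). A match is a description of these letters only.

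In untreated macrophages the receptor for CSF-1 was the most abundant of the 5 mRNAs per length. On the RPKM scale (CPM per kilobase of exon), Csf1r stood at 431 ± 69.9 (SD, n = 6), Csf2ra at 183 ± 35.4, Csf2rb2 at 139 ± 23.4, Csf2rb at 60.1 ± 9.12 and Csf1 at 29.8 ± 4.79. Csf1r lay above each other gene in every untreated library, as did Csf2rb2 over Csf2rb and Csf2rb over Csf1. Csf2ra also lay above Csf2rb2 in every untreated library, by little in replicate 6 (181 and 179 RPKM). Over all untreated libraries the ranges of Csf2ra (138 to 228 RPKM) and Csf2rb2 (115 to 179 RPKM) overlapped. Exon lengths come from GENCODE M21, and the annotation release used for the counts is not known here, so the order rests on approximate lengths.

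**Figure D1:**
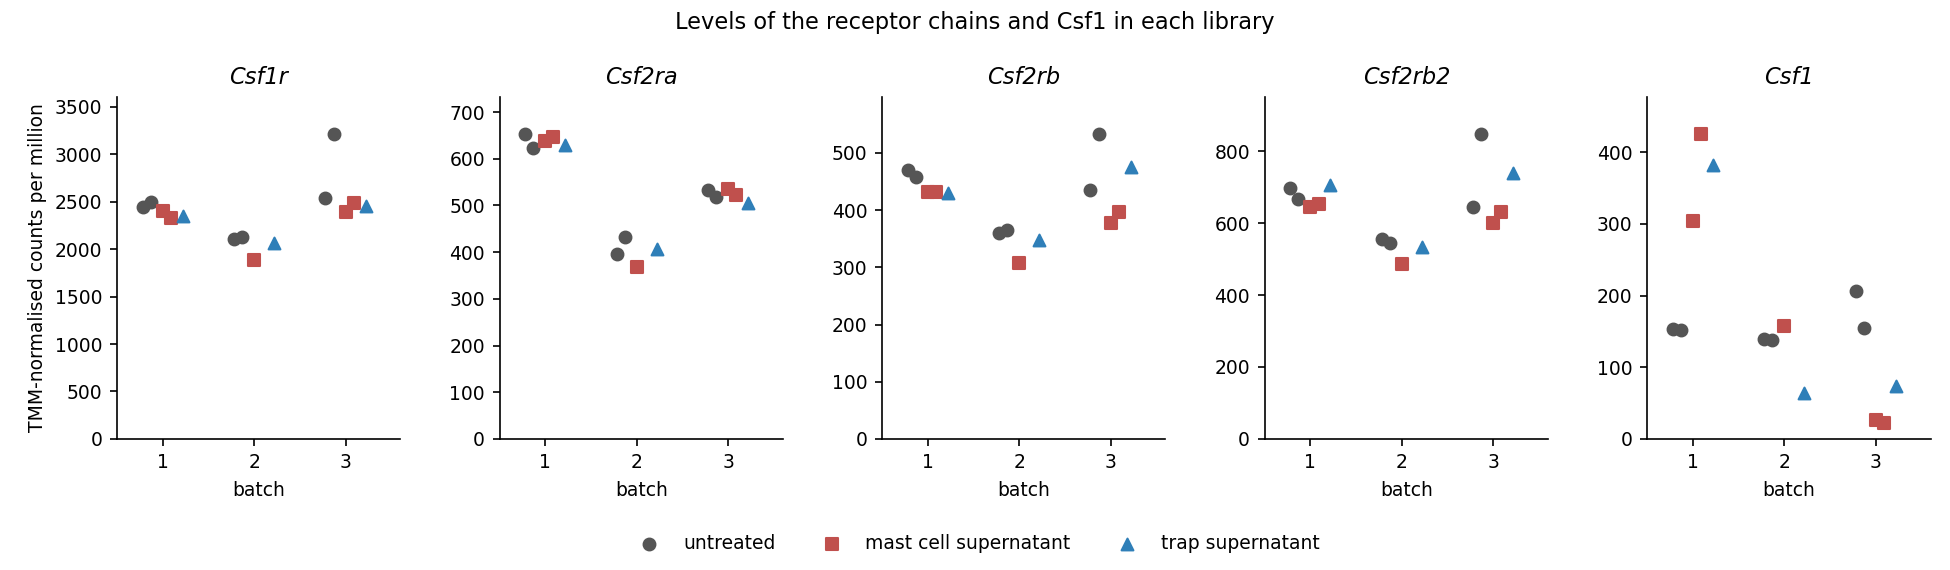
TMM-normalised CPM (y axis, from 0) of the 5 genes in each of the 14 libraries, by batch (x axis) and treatment (colour and shape); each point is 1 library. The 4 receptor genes stay within a narrow band, with the lowest values in batch 2, whereas Csf1 after treatment runs from 22.1 to 426 CPM.

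Csf1, the ligand, was higher after the supernatants in batch 1 and lower after them in batch 3. Its untreated level was 153 and 152 CPM in batch 1, 140 and 138 CPM in batch 2, and 207 and 155 CPM in batch 3. In batch 1 mast cell supernatant gave 304 and 426 CPM and trap supernatant gave 382 CPM. In batch 3 mast cell supernatant gave 26 and 22.1 CPM and trap supernatant 74.3 CPM. All 3 treated libraries thus lay above the untreated ones in batch 1 and all 3 below them in batch 3. How many of all genes separate in this way within a batch was not counted. In batch 2 the mast cell supernatant library, at 157 CPM, was above both untreated libraries and the trap supernatant library, at 63.7 CPM, below both.

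Averaged over batches, no difference of Csf1 passed the test. The log2 difference of Csf1 from untreated was -0.51 ± 0.68 (SE, adjusted p = 0.741) with mast cell supernatant and -0.48 ± 0.76 (adjusted p = 0.866) with trap supernatant, with 95% intervals of -2.05 to 1.02 and -2.19 to 1.23. With both supernatants joined, the log2 difference was 1.28 ± 0.52 in batch 1 (adjusted p = 0.201), -0.34 ± 0.56 in batch 2 (adjusted p = 0.948) and -2.15 ± 0.53 in batch 3 (adjusted p = 0.0425). Csf1 was the 1 member of 5 called in batch 3, where 8.41% of all genes were called. No member was called in batch 1 (background 7.56%) or batch 2 (1.19%) by edgeR. In batch 1, 1 member, Csf1, passed at an unadjusted p under 0.05, and limma-voom called it. In batch 2 none passed unadjusted or by limma-voom. The test of a difference of the joined response between batches missed the threshold for Csf1 (adjusted p = 0.0756) and called none of the 5 genes, against 5.36% of all genes. Csf1 was the 1 member under 0.05 without adjustment, and limma-voom called it (adjusted p = 0.00161). The call in batch 3 was kept without 3 of the 14 libraries, namely trap supernatant replicates 2 and 3 and mast cell supernatant replicate 2. Without any 1 of the other 11 the adjusted p was 0.0606 to 0.127, and with batch 3 fitted alone it was 0.288. Without batch 3, Csf1 was at 1.29 ± 0.39 in batch 1 (adjusted p = 0.109) and -0.33 ± 0.43 in batch 2 (adjusted p = 0.859), and averaged over both batches at 0.71 with mast cell supernatant (adjusted p = 0.489) and 0.27 with trap supernatant (adjusted p = 0.893). The negative averages of Csf1 thus rest on batch 3, the libraries with Lyz2 near 0.

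Since the supernatants differed in batches 2 and 3, a model with each supernatant in each batch was added after these values had been seen. Both supernatants are compared there with the same untreated libraries, and trap supernatant has 1 library in each batch, whose spread is assumed to be that of the other libraries. Csf1 rose in batch 1 with mast cell supernatant (log2 difference 1.26 ± 0.17, 2.39-fold, adjusted p = 0.00277) and with trap supernatant (1.33 ± 0.2, 2.51-fold, adjusted p = 0.006). It fell in batch 3 with mast cell supernatant (-2.92 ± 0.2, 7.54-fold lower, adjusted p = 3.33e-05) and with trap supernatant (-1.29 ± 0.23, 2.44-fold lower, adjusted p = 0.0208). In batch 2 the values were 0.17 ± 0.21 (adjusted p = 0.868) and -1.13 ± 0.23 (adjusted p = 0.0593), and neither passed. The spread in this model is smaller than in the joined one, whose SE of 0.52 to 0.56 takes in the gap between the supernatants. It comes only from libraries of the same group and batch, the untreated pairs and the mast cell supernatant pairs of batches 1 and 3. Such pairs were more alike than pairs of the same group from different batches. Small p-values of this model are measured against that narrow spread.

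In the same model the response of Csf1 differed between batches for mast cell supernatant (adjusted p = 5.76e-05) and for trap supernatant (adjusted p = 0.00226). The gap between the supernatants is the pattern that prompted this model, so its own test (adjusted p = 0.0101 for a difference between batches) is no independent evidence, and it rests on 1 trap supernatant library in each batch. Trap minus mast cell supernatant was 0.07 ± 0.21 on the log2 scale in batch 1 (adjusted p = 0.987), -1.3 ± 0.25 in batch 2 (adjusted p = 0.0727) and 1.63 ± 0.24 in batch 3 (adjusted p = 0.014). Leaving out mast cell supernatant replicate 5 took the last value to an adjusted p of 0.104 and the difference of the gap to 0.0547, and leaving out replicate 3 took the last value to 0.0883. Without batch 3, Csf1 was called in batch 1 with mast cell supernatant (1.26, adjusted p = 0.0212) and with trap supernatant (1.34, adjusted p = 0.0375). Batch 2 minus batch 1 was called for trap supernatant (-2.46 ± 0.33, adjusted p = 0.0375), and not for mast cell supernatant (-1.08 ± 0.3, adjusted p = 0.202) or for the gap (-1.38 ± 0.35, adjusted p = 0.25). Mast cell marker RNA differed between these libraries as well, and its part in the Csf1 values was not tested. Its sum was 76.2 to 102 CPM in the treated libraries of batch 1, 1320 CPM with mast cell and 717 CPM with trap supernatant in batch 2, and in batch 3 271 and 219 CPM with mast cell supernatant and 1920 CPM with trap supernatant.

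**Figure D2:**
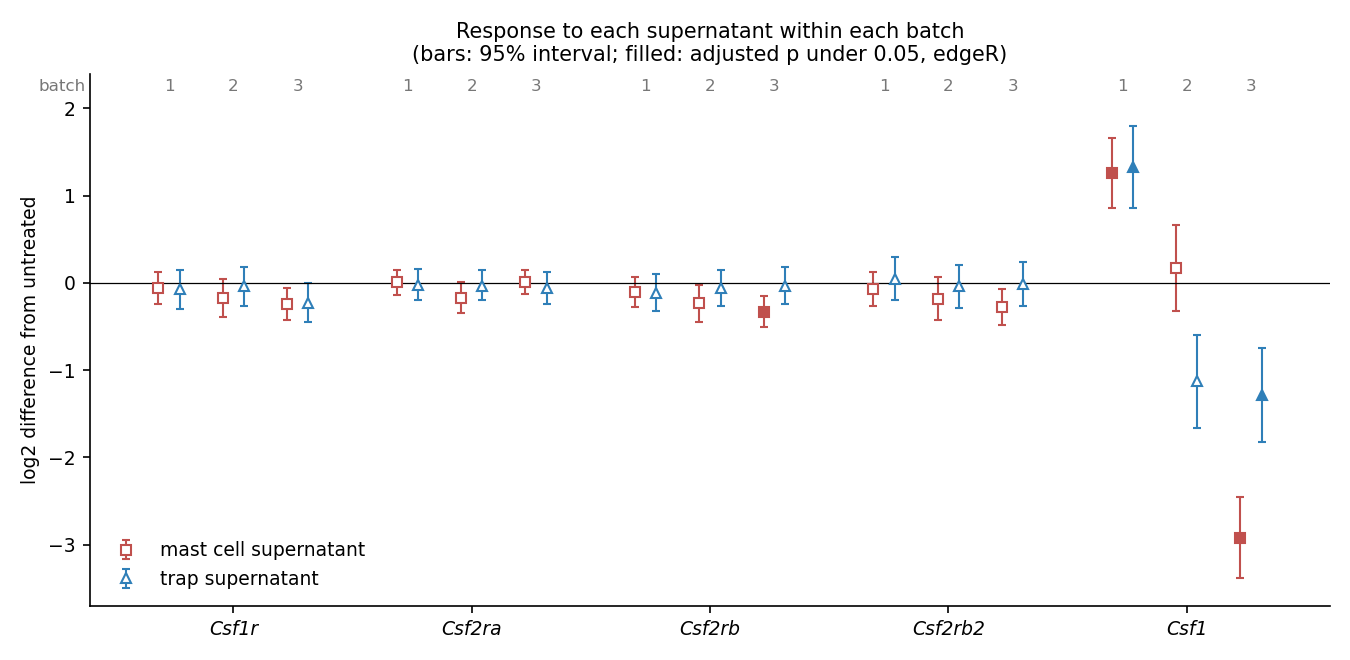
Log2 difference from untreated (y axis) of each gene with mast cell supernatant (squares) and trap supernatant (triangles) in batches 1 to 3, with 95% intervals; filled symbols have an adjusted p under 0.05. The receptor genes lie within 0.33 of 0 on the log2 scale, and Csf1 spans 1.33 to -2.92.

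The receptor genes moved little. Counting Csf1, 1 of the 5 genes, Csf2rb, was called with mast cell supernatant against untreated, beside 4.79% of all genes. None was called with trap supernatant against untreated, where the background was 1.72% and edgeR had 0 members at an unadjusted p under 0.05, nor by DESeq2 or limma-voom. Between the supernatants edgeR called 0 genes in all (0%), with 569 at an unadjusted p under 0.05, Csf2rb and Csf2rb2 among them. DESeq2 called 11 genes there, none of them a member. Without batch 3 edgeR called none of the 5 genes in these 3 averages, beside 6.95%, 1.97% and 0.00766% of all genes.

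Csf1r, the CSF-1 receptor (ENSMUSG00000024621), lies on the plus strand of chromosome 18 from 61100598 to 61132149. Exons of Hmgxb3 on the opposite strand overlap 873 bases of its exons, and Hmgxb3 had 1.24% to 2.96% as many counts as Csf1r. The kit was stranded, but the strand setting of the counting is not known here, so reads of the overlap may be shared. The untreated libraries held 2450 and 2500 CPM in batch 1, 2110 and 2130 CPM in batch 2 and 2540 and 3220 CPM in batch 3. With mast cell supernatant the values were 2400 and 2330 CPM, 1890 CPM, and 2390 and 2490 CPM in the same order, and with trap supernatant 2350, 2070 and 2460 CPM. Within each batch every treated library lay below every untreated one, although the groups overlapped over batches. The share of all genes that separate in this way was not counted, so the order alone is a description. The log2 difference of Csf1r was -0.15 ± 0.06 with mast cell supernatant (95% interval -0.27 to -0.03, adjusted p = 0.133) and -0.11 ± 0.06 with trap supernatant (-0.25 to 0.02, adjusted p = 0.497), and neither passed. Without batch 3 these were -0.1 (adjusted p = 0.249) and -0.05 (adjusted p = 0.754). In batch 3 the joined difference was -0.24 ± 0.08 (adjusted p = 0.0741), and without untreated replicate 6, the library at 3220 CPM, it was -0.05. Without untreated replicate 3, the other one of that batch, it was -0.39 and passed (adjusted p = 0.0015).

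Csf2ra, the GM-CSF-binding chain, showed no difference that passed the test with either supernatant. Untreated libraries held 397 CPM at the lowest, 526 CPM at the median and 654 CPM at the highest. Mast cell supernatant libraries held 638 and 647 CPM in batch 1, 368 CPM in batch 2 and 536 and 523 CPM in batch 3, and trap supernatant libraries 630, 407 and 505 CPM, so that treated and untreated libraries overlapped in every batch. The log2 difference was -0.03 ± 0.04 with mast cell supernatant (95% interval -0.13 to 0.06, adjusted p = 0.731) and -0.04 ± 0.05 with trap supernatant (-0.14 to 0.07, adjusted p = 0.845). Without batch 3 it was -0.05 (adjusted p = 0.617) and -0.02 (adjusted p = 0.946).

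Csf2rb, the common beta chain, was lower with mast cell supernatant by a small amount that passed the test. Untreated libraries held 470 and 458 CPM in batch 1, 360 and 365 CPM in batch 2, and 436 and 534 CPM in batch 3. The mast cell supernatant libraries held 431 and 432 CPM, 308 CPM, and 377 and 397 CPM, below both untreated libraries of their batch in each batch. The log2 difference was -0.22 ± 0.06 (95% interval -0.34 to -0.1, 1.16-fold lower, adjusted p = 0.0379). Trap supernatant libraries held 430, 348 and 475 CPM, a difference of -0.07 ± 0.07 (-0.21 to 0.07, adjusted p = 0.754). The values with trap supernatant lay below both untreated libraries in batches 1 and 2 and between them in batch 3. For these orders of libraries, too, the share of all genes was not counted.

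That call depended on the libraries and the model. With replicates 1 to 3 alone and the replicate number as a block, which pairs libraries of the same batch, the log2 difference of Csf2rb was -0.19 and the adjusted p was 0.373. Without the batch term the adjusted p was 0.79, and with the trap supernatant libraries left out of the fit 0.0597. Without batch 3, whose libraries have Lyz2 near 0, the difference was -0.15 ± 0.05 and missed the threshold (adjusted p = 0.0979). Leaving out 1 library kept the call in 6 of 14 cases, those without untreated replicate 3, mast cell supernatant replicates 1 and 4 or any 1 trap supernatant library. In the other 8 the adjusted p was 0.0503 to 0.0995. In the model added after seeing the data, Csf2rb was called in batch 3 with mast cell supernatant (-0.33 ± 0.08, adjusted p = 0.0133), and not without untreated replicate 6 (-0.17, adjusted p = 0.174) or mast cell supernatant replicate 3 (adjusted p = 0.132).

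Csf2rb2, its near copy, held 697 and 666, 556 and 544, and 645 and 849 CPM in the untreated libraries of batches 1, 2 and 3. Mast cell supernatant gave 645 and 654, 487, and 601 and 632 CPM, a log2 difference of -0.18 ± 0.06 (95% interval -0.3 to -0.05, adjusted p = 0.117). Trap supernatant gave 705, 534 and 740 CPM, a difference of 0 ± 0.07 (-0.15 to 0.15, adjusted p = 0.992). Without batch 3 the differences of Csf2rb2 were -0.11 (adjusted p = 0.21) and 0.01 (adjusted p = 0.964). Trap minus mast cell supernatant was 0.15 ± 0.07 for Csf2rb and 0.17 ± 0.07 for Csf2rb2, both with an adjusted p of 1.

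The pair rose and fell together from library to library. After batch means were removed, log2 levels of Csf2rb and Csf2rb2 correlated at r = 0.93 over the 14 libraries, Csf1r and Csf2rb at 0.84 and Csf1r and Csf2rb2 at 0.82. Csf2ra correlated with none of them above 0.21, and Csf1 with the receptor genes between -0.11 and 0.42. Over the 9 libraries of batches 1 and 2, the values in the same order were 0.77, 0.94 and 0.66, Csf2ra correlated with the other receptor genes at 0.58 to 0.76, and Csf1 with the receptor genes at -0.52 to -0.15. The low values for Csf2ra thus rest on batch 3. These are descriptions of libraries that share a scaling, and for the beta chains also similar sequence. The share of Csf2rb in the counts of the pair was 39.9% ± 0.783 (SD, n = 6) untreated and 39% ± 0.706 (n = 8) after either supernatant. Treated minus untreated was -1.26, -0.62 and -0.74 percentage points in batches 1, 2 and 3. An exact two-sided permutation of treatment within batches gave p = 0.0367 (600 arrangements). Adjusted over the 2 ratios tested, p was 0.0734. Without batch 3 the difference was -0.97 percentage points (exact permutation p = 0.1 over 60 arrangements). The other ratio, Csf2ra counts per 100 counts of the pair, was 48.2 ± 7.13 untreated and 51.8 ± 6.63 treated (exact permutation p = 0.24, adjusted p = 0.24). Both ratios are free of library scaling and were chosen after seeing the data.

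**Figure D3:**
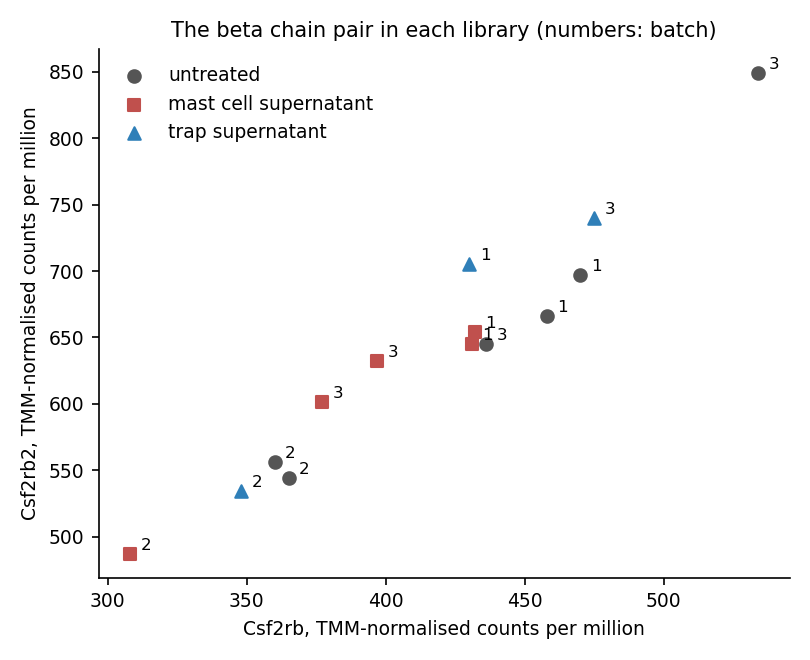
Level of Csf2rb2 (y axis) against Csf2rb (x axis) in TMM-normalised CPM, 1 point per library, coloured by treatment and numbered by batch; neither axis starts at 0. The libraries lie close to 1 line, from 308 and 487 CPM with mast cell supernatant in batch 2 to 534 and 849 CPM in an untreated library of batch 3.

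Within batches, the model added after seeing the data called no receptor gene other than Csf2rb in batch 3 with mast cell supernatant. Counting Csf1, it called 1 of 5 members with mast cell supernatant in batch 1 (8.97% of all genes), 0 in batch 2 (4.03%) and 2 in batch 3 (12.1%). With trap supernatant it called 1 in batch 1 (6.07%), 0 in batch 2 (1.82%) and 1 in batch 3 (3.66%). In batch 2 the members at an unadjusted p under 0.05 were Csf2rb with mast cell supernatant and Csf1 with trap supernatant, and limma-voom called Csf1 with trap supernatant. Between the supernatants it called 0 members in batch 1 (0.199%), with none at an unadjusted p under 0.05 or by limma-voom. It called 0 in batch 2 (1.06%), where Csf1 passed unadjusted and by limma-voom, and 1, Csf1, in batch 3 (1.45%). A response that differed between batches was called for Csf1 alone of the 5, beside 9.29% of all genes for mast cell supernatant, 3.75% for trap supernatant and 1.89% for the gap between them.

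Untreated macrophages differed between batches in the receptors. Of the 5 genes, 4 were called for a difference of the untreated level between batches, beside 33.6% of all genes: Csf2ra (adjusted p = 1.23e-05), Csf1r (0.00266), Csf2rb (0.00985) and Csf2rb2 (0.0176). Csf1 was not (0.843). All 4 receptor genes were lowest in batch 2, where the log2 difference from the mean of batches 1 and 3 was -0.48, -0.33, -0.39 and -0.38 in the same order. The untreated mean of Csf2ra was 639 CPM in batch 1, 415 CPM in batch 2 and 526 CPM in batch 3. The 2 beta chain calls were lost without untreated replicate 2 or 5, the batch 2 libraries, with adjusted p-values of 0.0745 to 0.123. Libraries of batch 2 also held more RNA of the fibroblast markers listed. Their summed levels were 139 to 163 CPM in treated and untreated libraries alike and 8.43 to 29.4 CPM in the other batches. Nearly all of that sum was collagen RNA, from Col1a1, Col1a2 and Col3a1. The other 2 markers, Pdgfra and Dcn, stayed at or under 0.838 and 0.454 CPM and had too few counts to be tested with all batches. Marker lists of myeloid cells moved with the batches too. All 8 macrophage markers were called between untreated batches, with a median of -0.53 for batch 2 against the mean of the others. That list includes Csf1r, already counted above, and Lyz2, which was near 0 in batch 3, and 1 of its 8 differences was positive. Also called were 8 of 9 tested neutrophil markers (median -0.76) and 3 of 3 tested fibroblast markers (median 3.27). The part of these marker differences in the receptor levels was not tested. Without batch 3, the 4 receptor genes were called for batch 2 minus batch 1, beside 30.4% of all genes: Csf2ra (-0.63, adjusted p = 1.41e-06), Csf2rb (-0.36, adjusted p = 0.000401), Csf2rb2 (-0.31, adjusted p = 0.00189) and Csf1r (-0.23, adjusted p = 0.0104). Of the same marker lists, 6 of 8 macrophage, 3 of 8 neutrophil and 4 of 4 tested fibroblast markers, Pdgfra then included, were called there.

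Genes around the receptors also differed between untreated batches, in which 33.6% of all genes were called. Of the 4 tested ligands and receptors, 3 were called: Csf3r (batch 2 against the mean of batches 1 and 3, log2 difference -1.3, adjusted p = 1.45e-05), Il3ra (-0.7, adjusted p = 6.31e-05) and Il34 (1.75, adjusted p = 0.0186). All 6 tested genes known to be induced by GM-CSF were called, led by Itgax, an integrin chain (-1.59, adjusted p = 2.97e-10), and Pparg (-0.66, adjusted p = 7.11e-06). So were 9 of 19 CSF-1 receptor relays, 4 of 12 GM-CSF receptor relays, 3 of 8 genes known to be induced by CSF-1 and 2 of 8 promoter factors. The shares of the last 3 lists lie near that of all genes. Without batch 3 the counts were 3 of 4 ligands and receptors, 4 of 6 genes induced by GM-CSF, 12 of 19 and 3 of 12 relays, 4 of 8 genes induced by CSF-1 and 3 of 8 promoter factors, beside 30.4% of all genes.

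Of the 8 other ligands and receptors of this family listed, 4 had too few counts to be tested. Csf3 (G-CSF), Il3 and Il5 had 1 count each over all 14 libraries. Il5ra, the interleukin-5-binding chain, had 0 counts in the 6 untreated libraries (0 allows up to 3, counting error only), 12 in the mast cell supernatant libraries and 9 in the trap supernatant libraries, all of these in batches 2 and 3. Csf3r, the G-CSF receptor, was at 49.3 ± 26.3 CPM untreated (SD, n = 6) and had a log2 difference of -0.35 ± 0.11 with mast cell supernatant (adjusted p = 0.0802). Il3ra, the interleukin-3-binding chain, was at 72.1 ± 17.2 CPM and differed by 0.04 ± 0.06 (adjusted p = 0.763). Il34, the other ligand of Csf1r, stayed at or under 1.17 CPM in every library. None of the 4 tested was called in the averages over batches. By unadjusted p under 0.05, 2 of them, Csf2 and Csf3r, passed with mast cell supernatant and 0 with trap supernatant or between the supernatants (edgeR). Without batch 3, Csf2 was called with mast cell supernatant (3.58 ± 0.86, adjusted p = 0.0226) and no other of the 4 in the averages.

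Csf2, which encodes GM-CSF, rose in batch 1, the batch in which Csf1 was higher. The 3 treated libraries there had 13, 15 and 12 counts and the 2 untreated ones 0 and 2 (joined log2 difference 4.31 ± 0.92, adjusted p = 0.00955; 4.32 without batch 3, adjusted p = 0.00319). Per total count this is a ratio of 21.3, with an exact 95% interval of 5.53 to 182 that covers counting error only. In batches 2 and 3, 1 of the 5 treated libraries had any Csf2 count, with 3. A difference of the joined Csf2 response between batches was not called (adjusted p = 0.208). The highest Csf2 level in any library was 1.42 CPM.

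The relays of these receptors were read from lists of genes chosen for their known roles. Of 19 genes that relay or restrain the CSF-1 receptor signal, 2 rose and 0 fell with mast cell supernatant: Cblb, a ubiquitin ligase (log2 difference 0.38 ± 0.07, adjusted p = 0.00563), and Dok2, an inhibitory adaptor (0.8 ± 0.15, adjusted p = 0.0145). With trap supernatant Cblb rose (0.39 ± 0.08, adjusted p = 0.0232) and no other gene of the list was called. Of all genes, 4.79% and 1.72% were called in these comparisons. Without batch 3 (6.95% and 1.97% of all genes), Cblb (0.45, adjusted p = 0.0238) and Dok2 (0.55, adjusted p = 0.000479) were called with mast cell supernatant. With trap supernatant Dok2 was then called (0.57, adjusted p = 0.00166) and Cblb was not (0.45, adjusted p = 0.077). The median log2 difference of the list was 0.03 and 0, beside -0.01 for all genes in both comparisons. Of 12 genes of the GM-CSF receptor signal, from Jak2 and the Stat5 genes to their targets, none was called by edgeR in either average, with 2 and 3 at an unadjusted p under 0.05 and medians of 0 and 0.08. Without batch 3, Mcl1 (0.3, adjusted p = 0.0281) and Cish, a feedback inhibitor (0.71, adjusted p = 0.0499), were called with mast cell supernatant and none of the 12 with trap supernatant. Between the supernatants edgeR called 0 genes of both lists, with 1 of each under 0.05 unadjusted.

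With the supernatants joined, 7.56%, 1.19% and 8.41% of all genes were called in batches 1, 2 and 3, and the counts below are to be read against these shares. Of the 19 CSF-1 receptor relays, 2 rose and 1 fell in batch 1: Pik3r1, a regulatory chain of PI 3-kinase (0.83 ± 0.13, adjusted p = 0.00124), and Cblb (0.53 ± 0.1, adjusted p = 0.00244) rose, and Inpp5d, the lipid phosphatase SHIP-1, fell (-0.27 ± 0.07, adjusted p = 0.0224). In batch 3, 3 rose and 1 fell: Dok2 (1.16 ± 0.17, adjusted p = 0.00239), Pik3cd, a catalytic chain of PI 3-kinase (0.36 ± 0.09, adjusted p = 0.0176), and Inpp5d (0.23 ± 0.07, adjusted p = 0.0476) rose, and Adam17, a protease that sheds the CSF-1 receptor, fell (-0.39 ± 0.09, adjusted p = 0.0113). A response that differed between batches was called for 3 of the 19, Pik3r1, Inpp5d and Pik3cd, beside 5.36% of all genes. Without batch 3, 4 of the 19 rose and 2 fell in batch 1 (12.1% of all genes), and batch 2 minus batch 1 was called for 1 of them, Pik3cd (0.4 ± 0.1, 1.8% of all genes).

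Of the genes of the GM-CSF receptor signal, Socs3 and Mcl1 rose in batch 1 and fell in batch 3. In batch 1 (7.56% of all genes), 4 of the 12 rose and 0 fell: Pim1, a survival kinase (1.79 ± 0.22, adjusted p = 0.00124), Socs3 (1.5 ± 0.21, adjusted p = 0.00129) and Socs1 (1.48 ± 0.29, adjusted p = 0.004), feedback inhibitors of Jak kinases, and Mcl1, which blocks apoptosis (0.41 ± 0.09, adjusted p = 0.00644). In batch 3 (8.41% of all genes), 0 rose and 3 fell: Jak2 (-0.73 ± 0.11, adjusted p = 0.000645), Socs3 (-1.43 ± 0.21, adjusted p = 0.00163) and Mcl1 (-0.33 ± 0.08, adjusted p = 0.021). Pim1 (-0.52, adjusted p = 0.178) and Socs1 (-0.7, adjusted p = 0.164) did not pass in batch 3, nor Jak2 in batch 1 (-0.03, adjusted p = 0.916). The response differed between batches for 5 of the 12, beside 5.36% of all genes. The 4 with the smallest adjusted p were Socs3 (0.000669), Mcl1 (0.00403), Pim1 (0.00567) and Socs1 (0.0099). The median of the list was 0.25 in batch 1 and -0.21 in batch 3, beside -0.01 and 0 for all genes. Without batch 3, 5 of the 12 rose and 0 fell in batch 1 (12.1% of all genes). Batch 2 minus batch 1 was then called for Socs3 (-2.07 ± 0.13, adjusted p = 2.23e-07) and not for Mcl1 (-0.33, adjusted p = 0.0754), Socs1 (-1.5, adjusted p = 0.0683) or Pim1 (-1.37, adjusted p = 0.104).

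Genes known to be induced by CSF-1 had no call in the averages over batches (1 of 8 at an unadjusted p under 0.05 with each supernatant, edgeR). Without batch 3, 3 of the 8 rose with mast cell supernatant, Egr1 (1.86, adjusted p = 0.00872), Ccnd2 (0.68, adjusted p = 0.00393) and Egr2 (1.29, adjusted p = 0.0407), and Egr1 rose with trap supernatant (1.71, adjusted p = 0.0373). Of the 8, 2 rose in batch 1 (7.56% of all genes), the early transcription factors Egr1 (2.13 ± 0.17, adjusted p = 1.41e-05) and Junb (1.25 ± 0.16, adjusted p = 0.000938). In batch 3 (8.41% of all genes), 2 fell, Junb (-0.74 ± 0.16, adjusted p = 0.0134) and Plau, the urokinase gene (-1.21 ± 0.27, adjusted p = 0.0314). Egr1 was at -0.73 there (adjusted p = 0.0804). Egr1 (adjusted p = 0.000259) and Junb (0.00119) were called for a response that differed between batches, beside 5.36% of all genes, and without batch 3 both were called for batch 2 minus batch 1 (Egr1 -1.12, adjusted p = 0.00109; Junb -1.62, adjusted p = 0.00702). Of 8 genes known to be induced by GM-CSF, 6 were tested. Pparg, a nuclear receptor, rose with mast cell supernatant (0.41 ± 0.08, adjusted p = 0.00556, 1 of the 6 beside 4.79% of all genes; 0.53 without batch 3, adjusted p = 0.0041). In batch 1 Pparg (0.66 ± 0.08, adjusted p = 7.95e-05) and the chemokine gene Ccl22 (0.78 ± 0.19, adjusted p = 0.02) rose with the supernatants joined. A response that differed between batches was called for Pparg alone of the 6 (adjusted p = 0.0267), and without batch 3 for none by edgeR (Pparg -0.39, adjusted p = 0.0833). In batch 2 edgeR called no gene of these lists or of the relays, with 3 and 3 of the relays, 2 genes known to be induced by CSF-1 and 2 by GM-CSF at an unadjusted p under 0.05. Fitted without batch 3, batch 2 (3.51% of all genes) had 1 of the 19 and 2 of the 12 relays, 2 of the 8 genes induced by CSF-1 and 0 induced by GM-CSF called.

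Of 8 factors known to act at the Csf1r promoter, 1 rose and 1 fell with mast cell supernatant, and 0 rose and 1 fell with trap supernatant, beside 4.79% and 1.72% of all genes. Cebpa, a myeloid transcription factor, fell with mast cell supernatant (-0.76 ± 0.09, adjusted p = 0.000372) and with trap supernatant (-0.68 ± 0.11, adjusted p = 0.00583), and without batch 3 by -0.94 (adjusted p = 2.68e-06) and -0.72 (adjusted p = 0.00023). Its fall passed in all 3 batches, at -0.98 ± 0.1 (adjusted p = 2.89e-05), -0.7 ± 0.11 (adjusted p = 0.00397) and -0.49 ± 0.1 (adjusted p = 0.00495). Ets2 rose with mast cell supernatant (0.7 ± 0.13, adjusted p = 0.0112; 0.94 without batch 3, adjusted p = 0.000103) and in batch 1 with the supernatants joined (0.98 ± 0.15, adjusted p = 0.00168). Without batch 3, Ets2 also passed with trap supernatant (0.73, adjusted p = 0.00223), and Irf8 with mast cell supernatant (-0.6, adjusted p = 0.00121), which with all batches was at -0.38 (adjusted p = 0.07). In batch 1 Irf8 fell (-0.53 ± 0.13, adjusted p = 0.0301), and in batch 3 Fli1 rose (0.54 ± 0.1, adjusted p = 0.00358) and Cebpb fell (-0.76 ± 0.17, adjusted p = 0.0227). A response that differed between batches was called by edgeR for 0 of the 8, with 4 at an unadjusted p under 0.05. The other 6 of the 8, Spi1 (PU.1) and Runx1 among them, were not called in either average, and Spi1 stood at 865 ± 49.4 CPM untreated and 872 ± 123 CPM with mast cell supernatant.

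**Figure D4:**
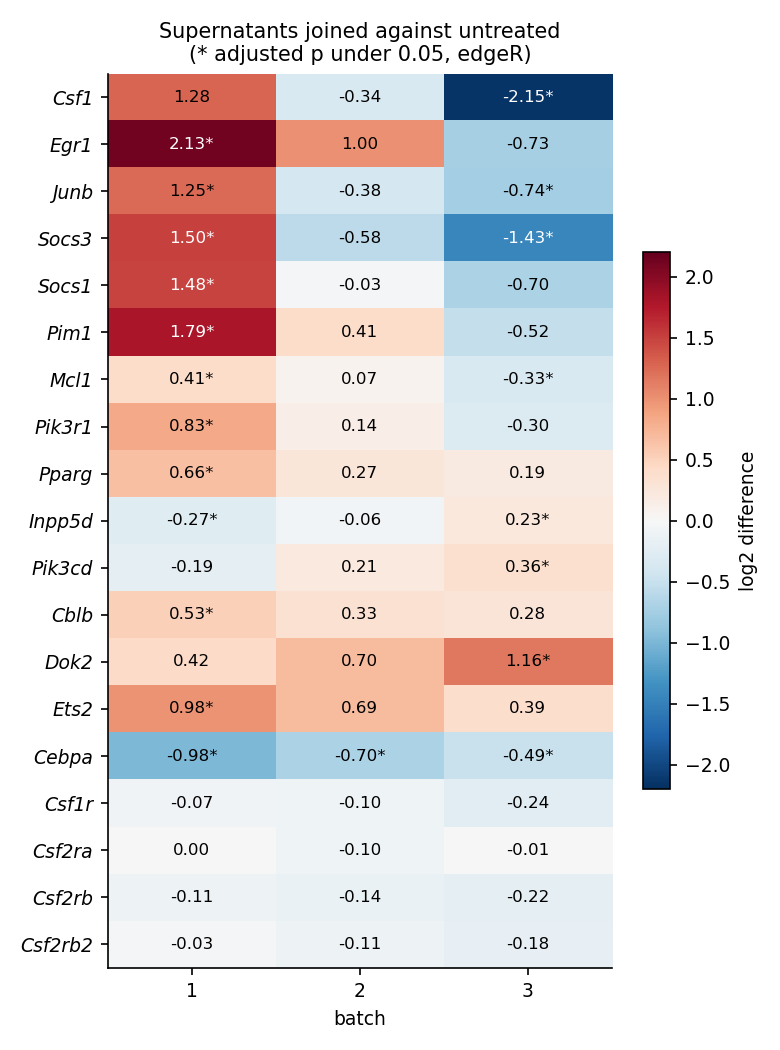
Log2 difference of joined supernatants from untreated (colour and number) in batches 1, 2 and 3 (columns) for Csf1, genes of its pathways chosen for a call in the averages or between batches, and the receptor genes; an asterisk marks an adjusted p under 0.05. Csf1, Junb, Socs3 and Mcl1 are positive in batch 1 and negative in batch 3, while the receptor genes stay between -0.24 and 0.

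The genes whose levels ran most like each member over the 14 libraries, after batch means were removed, were taken from 9752 genes. For Csf1 they were Nr4a3 (r = 0.99), an immediate early nuclear receptor, Rgcc (0.99) and the kinase gene Plk3 (0.98). For Csf1r they were the G-CSF receptor gene Csf3r (0.97), Inpp5k (0.97) and Ly9 (0.95). For Csf2ra they were Tbcc (0.9), Bvht (0.89) and Tcirg1 (0.86), for Csf2rb Smurf2, Dst and Ahdc1 (0.92 each), and for Csf2rb2 Zmym5 (0.92), Naip2 (0.91) and Cops2 (0.91). The highest values among very many genes are high by selection, and they are given as a description with no test. Over batches 1 and 2 alone the correlations of these 15 genes with their member were 0.74 to 0.99. With batch means kept they were -0.5 to 0.99 over the 14 libraries. The lowest were Dst (-0.5) and Smurf2 (0.21) with Csf2rb, Tbcc (-0.13) with Csf2ra and Cops2 (0.22) with Csf2rb2. For those genes the likeness thus holds within batches only.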

How the data were processed

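The values used are unnormalised read counts by gene for 14 libraries, as the authors deposited them. Counting used featureCounts 2.0.0 on GRCm38, per the submitters' processing notes; RNA came from a Qiagen RNeasy Plus Micro column and libraries from an Illumina stranded mRNA kit, per the labels' protocols. Aligner, annotation release, read length, strand setting and treatment of shared reads: not given in the sources used here. Symbols were found for 47224 of 47937 genes.

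Tests used edgeR 4.0.16 (R 4.3.3) with filterByExpr, TMM scaling, a quasi-likelihood model of group and batch over all 14 libraries, and a second model with both supernatants joined as treated within each batch. Adjusted p-values are Benjamini-Hochberg over 13061 genes with a threshold of 0.05, from edgeR's quasi-likelihood F test unless another is named, and SE and 95% intervals follow from the F statistic. Levels are TMM-normalised CPM. The model of group and batch and the model of joined supernatants were tested on simulated data, and the model with each supernatant in each batch was not. Alternatives were median-of-ratios scaling, no filter, limma-voom 3.58.1, DESeq2 1.42.0, other terms and other sets of libraries. The model with each supernatant in each batch, the ratios and the fits of the batch-wise models without batch 3 were added after seeing the data.

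The genes and the lists around them were chosen with earlier results of these data known. The text names the 5 genes, the other ligands and receptors in full, up to 4 called genes per list and comparison with the smallest adjusted p, and 3 genes per member with the most similar levels, taken from genes at 5 CPM or more on average, on the log2 CPM scale with a prior count of 1.

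The labels give replicate 1 of all groups to batch 1, replicate 2 to batch 2 and replicate 3 to batch 3, and thereby pair them. After removal of group means, the 9 pairs with the same number correlated at 0.29 to 0.72 and pairs with different numbers at -0.56 to 0.17. No library was counted as a repeat of another: chi-square over degrees of freedom was 1.77 or more for the 28 pairs of libraries of one group. Pairs from the same batch were the more alike, at 1.77 to 14, and the other pairs were at 29.1 or more. Promoters and coding sequences were read from RefSeq and GENCODE tables. Intervals from counts cover counting error only.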

Additional observations from a re-analysis of the deposited data

Results flagged for a closer look

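The response of Csf1 differed between batches in the model with each supernatant in each batch, for mast cell supernatant (adjusted p = 5.76e-05), for trap supernatant (adjusted p = 0.00226) and for the gap between them (adjusted p = 0.0101). The gap prompted that model and rests on 1 trap supernatant library per batch, so its test is no independent evidence. Without batch 3, whose libraries have Lyz2 near 0, batch 2 minus batch 1 was called for trap supernatant only of these 3 (adjusted p = 0.0375, 0.202 for mast cell supernatant and 0.25 for the gap). The joined response differed between batches for 10 of the pathway genes named, a number set by naming at most 4 called genes per list. These were Egr1 (adjusted p = 0.000259), Socs3 (0.000669), Junb (0.00119), Mcl1 (0.00403), Pik3r1 (0.00525), Pim1 (0.00567), Socs1 (0.0099), Inpp5d (0.0131), Pparg (0.0267) and Pik3cd (0.0282). By list, 3 of 19 CSF-1 receptor relays, 5 of 12 GM-CSF receptor relays, 2 of 8 genes induced by CSF-1 and 1 of 6 induced by GM-CSF were called. Of the 4 tested ligands and receptors and of the 8 promoter factors, 0 were called, and of all genes 5.36%. Without batch 3, batch 2 minus batch 1 was called for 4 of the 10, Socs3, Egr1, Junb and Pik3cd, beside 1.8% of all genes.

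Within groups, 2 libraries stood far from the others: untreated replicate 3, of batch 3, with the highest Csf1 of its group at 207 CPM, and mast cell supernatant replicate 2, the 1 library of its group in batch 2, with the lowest Csf1r at 1890 CPM. With 14 groups of 5 or 6 libraries examined and a rule that chance meets in about 1 of 20, flags at this rate carry little weight. That rate is for groups of like libraries, whereas each group here mixes batches. Csf1r was lowest in batch 2 in the other groups too, at 2110 and 2130 CPM untreated and 2070 CPM with trap supernatant.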

How the results depend on the processing

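Beside the reported values, 597 values came from other settings and 1584 from leaving out 1 library, and 530 and 1432 of them were rated as the same. For a tested difference this means the same direction and side of the threshold. For a number of genes called it means a ratio within 1.5, and for a mean level a change of less than 1 SD. Bulk RNA cannot tell fewer cells from less RNA per cell, trap supernatant has 1 library per batch, and both supernatants are set against the same untreated libraries. Csf2 and Il34 rest on few counts. Where a value below changed, the cause was not tested.

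Without the filter on low counts, genes called with the supernatants joined were 1620, 640 and 1789 in batches 1, 2 and 3 and 1498 for the difference between batches. Csf1 then passed in batch 1 (1.28), batch 2 (-0.32), the difference between batches (-3.42) and between untreated batches (-0.26), and with trap supernatant in batch 2 against untreated (-1.11) and against mast cell supernatant (-1.29). Csf1r passed in batch 3 (-0.23). With limma-voom, Csf1 passed in batch 1 (1.27), the difference between batches (-3.62) and, in batch 2, trap supernatant against untreated (-1.13) and against mast cell supernatant (-1.3). DESeq2 called 409 genes with trap supernatant and 11 between the supernatants.

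Without the batch term, 62 and 15 genes were called with mast cell and trap supernatant. Csf2ra with mast cell supernatant was 0.04, Csf2rb -0.17, and Csf1 0.24 with mast cell supernatant, 0.14 with trap supernatant and -0.11 between them. With only the groups compared, 22 genes were called between the supernatants and Csf2rb with mast cell supernatant (-0.22) missed the threshold. With the replicate block, 84 and 36 genes were called with mast cell and trap supernatant, and the block took the call of Csf2rb (-0.19) and changed no other call of the 5 genes in the 3 averages over batches, for which it was fitted.

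Without batch 1, Csf2rb with mast cell supernatant was -0.28 and missed the threshold, and 116 genes were called with trap supernatant. Without batch 2, 231 and 88 genes were called with mast cell and trap supernatant, Csf2ra was 0.02 and Csf2rb -0.2 with mast cell supernatant. Without batch 3, Csf2rb was -0.15, Csf1 0.71 with mast cell and 0.27 with trap supernatant and -0.44 between them, where 1 gene was called. In the fits without batch 3 added after seeing the data, 1575 and 459 genes were called in batches 1 and 2 with the supernatants joined, 235 for batch 2 minus batch 1, and for Csf1 batch 2 minus batch 1 was -1.08 with mast cell supernatant and -1.38 for the gap between the supernatants, neither called. Each batch fitted alone gave 1812, 305 and 473 genes, with Csf1 called in batch 1 (1.29) and not in batch 3 (-2.15).

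Leaving out 1 library at a time gave 97 to 280 genes called with trap supernatant, 0 to 3 between the supernatants, 240 to 1282, 19 to 333 and 418 to 1844 in batches 1, 2 and 3, 235 to 1175 for the difference between batches and 2751 to 4826 between untreated batches. Csf2rb with mast cell supernatant was -0.24 to -0.17 and Csf2ra -0.05 to 0.01. Csf1 was -0.54 to 0.37 between the supernatants, -1.13 to 0.17 in batch 2, -2.91 to -1.85 in batch 3 and -4.2 to -3.13 for batch 3 minus batch 1. In batch 3 Csf1r was -0.39 to -0.05, Csf2ra -0.03 to 0.01, Csf2rb -0.36 to -0.07 and Csf2rb2 -0.36 to 0.03. Batch 3 minus batch 1 was -0.34 to 0.01 for Csf1r, -0.05 to 0.02 for Csf2ra, -0.26 to 0.04 for Csf2rb and -0.35 to 0.06 for Csf2rb2. Between untreated batches Csf2rb was -0.46 to -0.31 and Csf2rb2 -0.47 to -0.27.

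In the model added after seeing the data, leaving out 1 library gave Csf1 -1.14 to -1.12 with trap supernatant in batch 2. Trap minus mast cell supernatant was -0.16 to 0.33, -1.3 to -1.3 and 1.52 to 1.75 in batches 1, 2 and 3, and its difference between batches 1.29 to 1.78. The signs of some values near 0 changed: Csf2ra with mast cell supernatant in batches 1 (-0.03 to 0.04) and 3 (-0.01 to 0.04) and with trap supernatant in batches 1 (-0.05 to 0.01) and 2 (-0.09 to 0.03), Csf2rb (-0.17 to 0.12) and Csf2rb2 (-0.2 to 0.2) with trap supernatant in batch 3, and Csf1r between the supernatants in batches 1 (-0.04 to 0.01) and 3 (-0.01 to 0.04). Batch 3 minus batch 1 was -0.34 to 0.01 for Csf1r and -0.4 to 0.01 for Csf2rb2 with mast cell supernatant, and with trap supernatant -0.34 to 0.03 for Csf1r, -0.09 to 0.23 for Csf2rb and -0.27 to 0.15 for Csf2rb2.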
